A study of Mus musculus with 3 samples.

Results

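The genes described here carry out meiotic recombination, from the cutting of DNA to the formation of crossovers. They are Spo11, Mei1, Prdm9, Dmc1, Brca2, Trip13, Msh4, Msh5 and Mlh3, and their values are those of every array probe whose transcript accession belongs to one of these symbols in the RefSeq gene table. Of the 9 genes, 6 had a probe, and they had 9 of the 41174 probes and were 6 of the 16535 named genes of the array. Spo11, Brca2 and Msh5 had 2 probes each, and Dmc1, Trip13 and Msh4 had 1. Mei1, Prdm9 and Mlh3 matched no probe, and their expression was not analysed here.

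RNA came from male gonads of mouse embryos of the line MCH at embryonic day 14.5 and was measured on Agilent one-colour arrays. The 3 genotypes were double knockout (Cyp26b1-/-/Stra8-/-), Cyp26b1 knockout (Cyp26b1-/-/Stra8+/+) and wild type (Cyp26b1+/+/Stra8+/+), with 2 arrays each. By their labels, both knockout groups carry no wild-type allele of Cyp26b1, which encodes an enzyme that degrades retinoic acid. The double knockout is labelled as also without one of Stra8, a retinoic acid-responsive transcription factor needed for meiotic entry. The labels do not state how the alleles were made, nor the number of embryos behind an array. The design text calls the duplicates biological, and p-values here reflect the spread of these arrays alone.

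In meiosis, PRDM9 marks the sites where SPO11, with partners such as MEI1, cuts both strands of DNA. The ends are trimmed back, and the recombinase DMC1, loaded with the help of BRCA2, pairs them with the matching chromosome. The MSH4 and MSH5 proteins form a dimer that holds the joined molecules, and MLH3 acts in turning some of them into crossovers. TRIP13 is an ATPase that remodels chromosome axis proteins as recombination proceeds. In fetal ovaries germ cells enter meiosis at about this age in response to retinoic acid, while in fetal testes CYP26B1 removes that signal and germ cells stay out of meiosis.

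Values are log2 signals relative to the 75th percentile of their array, so that a level of 0 is the array's upper quartile. The 9 probes were well above background on all 6 arrays, and none was saturated. A gene with 2 probes was tested at the brighter one, and a call means a limma adjusted p (Benjamini-Hochberg over 22256 features) below 0.05. A sample comparison of 2 arrays with 2 by exact permutation could not give a two-sided p below 0.333, so calls rest on the limma fit. Each genotype lay on a slide of its own, and the Cyp26b1 knockout slide was scanned on a different day from the other slides. Slide and genotype cannot be told apart in any comparison, nor can scan day and genotype where Cyp26b1 knockout arrays are compared.

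The signals of the targeted genes neither checked nor refuted the labels. Stra8 read 5.98 and 6.14 on the arrays labelled double knockout, 7.19 and 7.04 on those labelled Cyp26b1 knockout, and 3.73 and 2.41 on wild-type arrays. Cyp26b1 averaged 4.01 ± 0.14, 4.05 ± 0.31 and 3.93 ± 0.14 (SD, n = 2 each) in the same genotype order. Stra8 signal on both double knockout arrays was therefore above that of either wild-type array and below that of either Cyp26b1 knockout array. The labels do not place these probes relative to the deletions, and a probe beyond the deleted stretch checks nothing. Genotype names below are those of the labels, and each direction is between arrays so labelled.

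Across 19536 features the 2 arrays of a genotype correlated with r = 0.9943 to 0.9961 (Pearson), and the SD of their difference was 0.244 to 0.299. Defining markers of the gonad were present, since 8 of 8 germ cell, 7 of 7 Sertoli cell and 5 of 5 fetal Leydig cell markers were well above background on all arrays. The same held for 6 of 6 endothelial, 5 of 6 blood and macrophage and 5 of 6 mesonephros and duct markers.

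Dmc1 and Msh5 had the largest differences among the 6 genes. Dmc1 encodes the meiosis-specific recombinase. It read -3.10 and -3.36 on double knockout arrays, -0.84 and -0.85 on Cyp26b1 knockout arrays, and -2.46 and -3.42 on wild-type arrays. The Cyp26b1 knockout arrays stood apart from the other 4, while double knockout and wild type overlapped. The first wild-type array held the higher Dmc1 level of that genotype and also its higher Stra8 level. With 2 arrays such a shared order cannot show a link, and none was tested. Dmc1 was 4.28-fold higher in arrays labelled Cyp26b1 knockout than in wild type (log2 difference 2.10 ± 0.29 SE, limma adjusted p = 0.00104). Its log2 difference between double knockout and wild type was -0.29, with a 95% interval from -0.97 to 0.38 (adjusted p = 0.542). In the double knockout arrays it was 5.23-fold lower than in Cyp26b1 knockout (-2.39 ± 0.29, adjusted p = 0.00111).

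Msh5 encodes a subunit of the MSH4-MSH5 dimer. Its brighter probe read -4.57 and -4.55 on double knockout arrays, -2.08 and -1.67 on Cyp26b1 knockout arrays, and -4.13 and -4.12 on wild-type arrays. Every Cyp26b1 knockout value lay above the other 4, and both double knockout values lay below both wild-type values. The gene was 4.75-fold higher in arrays labelled Cyp26b1 knockout than in wild type (2.25 ± 0.19, adjusted p = 0.000198). It was 6.43-fold lower in double knockout than in Cyp26b1 knockout (-2.69 ± 0.19, adjusted p = 0.000391). The log2 difference of -0.44 between double knockout and wild type did not pass the test (adjusted p = 0.174), and its 95% interval ran from -0.88 to 0.004.

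The dimmer Msh5 probe gave the same directions and calls. It read -5.08 and -4.68 on double knockout arrays, -2.56 and -3.03 on Cyp26b1 knockout arrays, and -4.33 and -4.55 on wild-type arrays. In the fit with each probe as its own feature, it differed by 1.65 between Cyp26b1 knockout and wild type (adjusted p = 0.00119) and by -2.08 between double knockout and Cyp26b1 knockout (adjusted p = 0.00075). In the authors' deposited table of linear ratios, whose centring is unknown, Msh5 stood at 0.642 in double knockout, 5.10 in Cyp26b1 knockout and 0.9994 in wild type at the brighter probe. In the same authors' deposited table Dmc1 stood at 0.674, 4.36 and 0.948 in that order of genotypes.

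**Figure D1:**
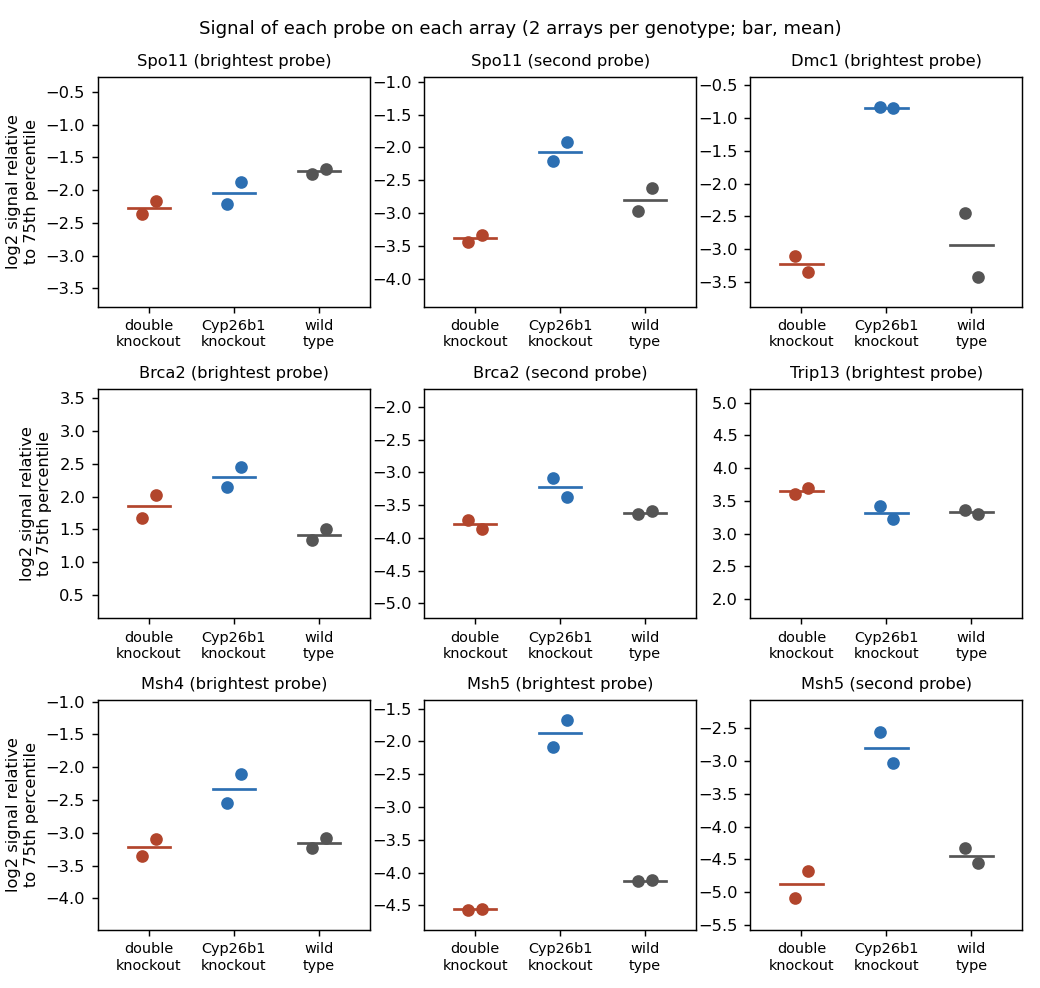
Log2 signal relative to the array's 75th percentile (vertical axes, each spanning the same range) for the 9 probes, with 1 point per array and a bar at the mean of the 2 arrays of double knockout, Cyp26b1 knockout and wild type. For Dmc1 and both Msh5 probes the Cyp26b1 knockout arrays lie above the other 4, while the Spo11 probes order the genotypes differently.

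Msh4 and Brca2 showed smaller differences of the same direction between Cyp26b1 knockout and wild type. Msh4, the partner of Msh5, read -3.36 and -3.09 on double knockout arrays, -2.55 and -2.10 on Cyp26b1 knockout arrays, and -3.23 and -3.08 on wild-type arrays. Again the Cyp26b1 knockout arrays were the highest, and double knockout and wild type overlapped. The gene was 1.77-fold higher in Cyp26b1 knockout than in wild type (0.83 ± 0.20, limma adjusted p = 0.011). That call was lost without Cyp26b1 knockout replicate 2 (0.60, adjusted p = 0.055) or wild-type replicate 1 (0.75, adjusted p = 0.0694). Msh4 was 1.86-fold lower in double knockout than in Cyp26b1 knockout (-0.90 ± 0.20, adjusted p = 0.01). It differed by -0.07 between double knockout and wild type (95% interval -0.54 to 0.39, adjusted p = 0.843).

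Brca2 encodes the protein that loads the recombinases onto single-stranded DNA. Its brighter probe read 1.68 and 2.03 on double knockout arrays, 2.15 and 2.46 on Cyp26b1 knockout arrays, and 1.334 and 1.501 on wild-type arrays. The 3 genotypes did not overlap, with double knockout between the other two. It was 1.84-fold higher in Cyp26b1 knockout than in wild type (0.88 ± 0.15, adjusted p = 0.0026). In double knockout it was 1.36-fold lower than in Cyp26b1 knockout (-0.45 ± 0.15, adjusted p = 0.0461). This call was lost without double knockout replicate 1 (adjusted p = 0.22), Cyp26b1 knockout replicate 2 (0.21), wild-type replicate 1 (0.0665) or wild-type replicate 2 (0.066). Brca2 differed by 0.44 between double knockout and wild type (adjusted p = 0.104), and with file number as a replicate block the same difference passed (adjusted p = 0.0248).

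The dimmer Brca2 probe read -3.72 and -3.86 on double knockout arrays, -3.09 and -3.37 on Cyp26b1 knockout arrays, and -3.64 and -3.59 on wild-type arrays. Cyp26b1 knockout was again the highest, by 0.39 over wild type (adjusted p = 0.0952), while double knockout was 0.56 lower than Cyp26b1 knockout (-0.56, adjusted p = 0.0312). Unlike the brighter probe, it placed double knockout below wild type (-0.18, adjusted p = 0.535).

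Spo11, which encodes the enzyme that cuts DNA, gave different answers at its 2 probes. The brighter one read -2.37 and -2.16 on double knockout arrays, -2.21 and -1.87 on Cyp26b1 knockout arrays, and -1.75 and -1.68 on wild-type arrays. Both knockouts lay below wild type at this probe, and they overlapped each other. Its log2 differences were -0.33 for Cyp26b1 knockout against wild type (adjusted p = 0.119), -0.55 for double knockout against wild type (adjusted p = 0.0639) and -0.22 for double knockout against Cyp26b1 knockout (adjusted p = 0.285). The difference between double knockout and wild type passed with file number as a replicate block (adjusted p = 0.0383), and also without Cyp26b1 knockout replicate 1 (0.0458) or replicate 2 (0.0465). The difference between Cyp26b1 knockout and wild type passed without Cyp26b1 knockout replicate 2 (-0.50, adjusted p = 0.0479).

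The dimmer Spo11 probe read -3.44 and -3.33 on double knockout arrays, -2.21 and -1.92 on Cyp26b1 knockout arrays, and -2.98 and -2.63 on wild-type arrays. Here the Cyp26b1 knockout arrays were the highest and the double knockout arrays the lowest, with no overlap. This probe was 1.67-fold higher in Cyp26b1 knockout than in wild type (0.74 ± 0.18, adjusted p = 0.0103) and differed by -1.32 between double knockout and Cyp26b1 knockout (adjusted p = 0.00123). It differed by -0.59 between double knockout and wild type (adjusted p = 0.0756). The probes disagree in sign for Cyp26b1 knockout against wild type, so no direction is given for Spo11 there.

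A difference between brighter and dimmer probes was also present across the array. For 4505 genes with several tested probes, the median log2 difference of Cyp26b1 knockout against wild type was -0.11 at the brightest probes and 0.21 at the 5593 dimmer ones. Dimmer probes were called higher in 37.8% of cases and brightest ones in 22%. The medians for double knockout against Cyp26b1 knockout were 0.15 at the brightest probes and -0.23 at the dimmer ones. They were, for double knockout against wild type, 0.03 and -0.04. The part of this difference in the results for the genes described here was not tested, neither at dimmer probes nor at the brightest ones. The tested probes of Dmc1, Msh4 and Msh5 were themselves dim, with wild-type means of -2.94, -3.15 and -4.12. Over all features with a mean level under -2, the median of Cyp26b1 knockout against wild type was -0.05. Dmc1, Msh4 and Trip13 had 1 probe each, so no second probe could be set beside theirs.

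Trip13 encodes the axis-remodelling ATPase. It read 3.61 and 3.70 on double knockout arrays, 3.42 and 3.22 on Cyp26b1 knockout arrays, and 3.36 and 3.29 on wild-type arrays. Double knockout was highest, and Cyp26b1 knockout and wild type overlapped. Trip13 was 1.26-fold higher in double knockout than in Cyp26b1 knockout (0.34 ± 0.10, adjusted p = 0.0253). That call was lost without double knockout replicate 1 (adjusted p = 0.0572), double knockout replicate 2 (0.126) or Cyp26b1 knockout replicate 2 (0.0938). The log2 difference was 0.33 for double knockout against wild type (adjusted p = 0.0655), and -0.01 for Cyp26b1 knockout against wild type (95% interval -0.23 to 0.21, adjusted p = 0.96). The first of these passed without Cyp26b1 knockout replicate 1 (adjusted p = 0.0423) or replicate 2 (0.0419), which took no part in the difference itself.

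**Figure D2:**
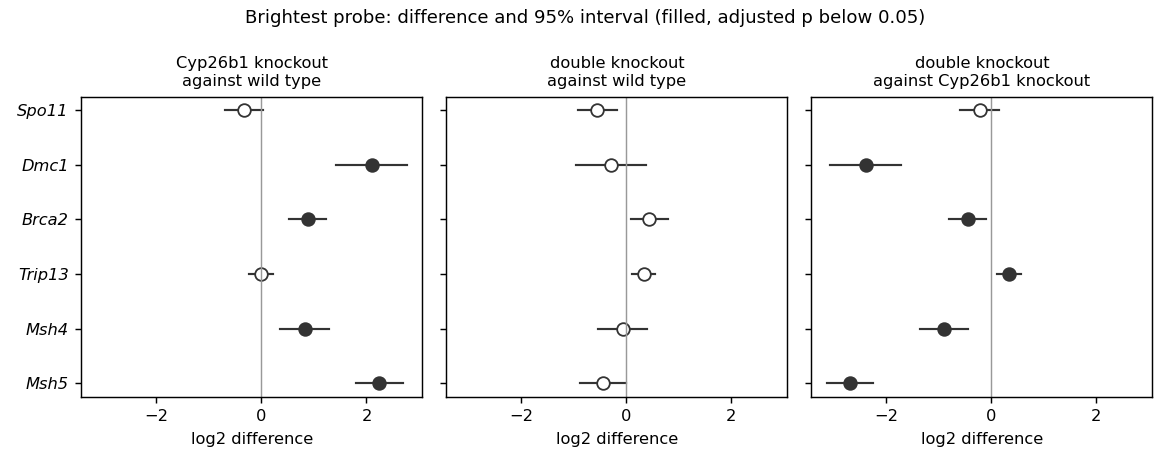
Log2 difference at the brightest probe of each gene (horizontal axis) with its 95% interval from the limma fit, n = 2 arrays per genotype, filled where the adjusted p was below 0.05. Dmc1, Brca2, Msh4 and Msh5 are filled on the positive side where Cyp26b1 knockout is compared with wild type and on the negative side for double knockout against Cyp26b1 knockout, and no gene is filled for double knockout against wild type.

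Counted together, 4 of 6 genes were higher and 0 lower in arrays labelled Cyp26b1 knockout than in wild type. Over all features tested 51.2% were called in that comparison, 21.6% higher and 29.6% lower. The median log2 difference was 0.85 for the 6 genes and -0.09 for all features. In the range of mean levels below -2, where Dmc1, Msh4, Msh5 and Spo11 lay, 20.9% of 8952 features were called higher and 23.8% lower.

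In double knockout against wild type, limma called 0 of 6 genes, where 11.9% of features were called, 5.3% higher and 6.56% lower. An unadjusted p under 0.05 in that fit was found for 3 of the 6, Spo11, Trip13 and Brca2. With file number as a replicate block, 1 of the 6 genes was called higher and 1 lower. The median was -0.18 for the 6 genes and -0.02 for all features.

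For double knockout against Cyp26b1 knockout 4 of 6 genes were lower and 1 higher, with 43.2% of features called, 18% lower and 25.2% higher. The median was -0.67 for the 6 genes and 0.09 for all features. The last comparison shares its Cyp26b1 knockout arrays with the first, so the opposite directions in them are not separate evidence.

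Another scaling moved these splits. In the authors' deposited value table, the log2 differences were shifted as a whole, with 0.10 added for Cyp26b1 knockout against wild type. The shift was -0.20 when double knockout was compared with wild type and -0.30 when it was compared with Cyp26b1 knockout. With that scaling the median over all features was 0.02, -0.22 and -0.22 in the same order. Of the calls, 52.1% were then higher for Cyp26b1 knockout against wild type, against 42.2% with the scaling used here. The share of higher calls was 13.4% against 44.7% for double knockout against wild type, and 22.4% against 58.3% for double knockout against Cyp26b1 knockout. Under that scaling Spo11 (-0.75, adjusted p = 0.0175) and Msh5 (-0.64, adjusted p = 0.0481) were called lower in double knockout than in wild type. Against Cyp26b1 knockout, Trip13 was no longer called (0.03, adjusted p = 0.808) and Spo11 was called lower in double knockout (-0.53, adjusted p = 0.0306). That Spo11 difference also passed with the scaling used here when all probes of a gene were averaged (-0.77, adjusted p = 0.00885).

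In whole gonads, fewer cells of a type and less RNA per cell cannot be told apart. The summed signal of 8 germ cell markers, in units of the array's 75th percentile, was 71.6 and 82.7 on double knockout arrays, 71.3 and 56.3 on Cyp26b1 knockout arrays, and 86.6 and 85.2 on wild-type arrays. Between Cyp26b1 knockout and wild type, 5 of the 8 were lower, 1 was higher (Dazl, an RNA-binding germ cell protein, 0.72) and the median was -0.62. Over all features tested, 29.6% were lower and 21.6% higher there. Set against Cyp26b1 knockout, double knockout had 3 of these markers higher and 0 lower, where 25.2% of features were higher and 18% lower.

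Other marker sums also moved. Sertoli cell markers summed to 68.7 and 64.2 on double knockout arrays, 60.6 and 56.9 on Cyp26b1 knockout arrays, and 52.1 and 46.2 on wild-type arrays, the lowest of the 3 genotypes. Leydig cell markers summed to 98.8 and 83.1, 58.9 and 79.3, and 112.5 and 96.5 in the same genotype order. For endothelial markers the range was 13.7 to 14.3, 10.9 to 11.2, and 11.6 to 12.1. It was 4.72 to 5.33, 3.94 to 5.97, and 6.50 to 7.57 for blood and macrophage markers. Mesonephros and duct markers had 7.29 to 8.07, 6.69 to 9.03, and 11.6 to 12.9. Single markers split under these sums. Of 7 Sertoli markers, 4 were higher and 1 (Amh) lower in Cyp26b1 knockout than in wild type. In double knockout 2 were higher and 1 (Amh) lower than in wild type. Of 6 endothelial markers, 3 were higher and 2 lower in Cyp26b1 knockout than in wild type. Of 16 genes of DNA replication and S phase, 7 were higher and 0 lower in Cyp26b1 knockout than in wild type. In double knockout 1 was higher and 0 lower than in wild type, and 2 were higher and 6 lower than in Cyp26b1 knockout. Over all features, 21.6% were higher and 29.6% lower in Cyp26b1 knockout than in wild type. The shares for double knockout were 5.3% and 6.56% against wild type, and 25.2% and 18% against Cyp26b1 knockout. The part of the marker and S phase differences in the results was not tested.

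The other genes of the same steps were taken from lists of break formation, resection and damage signalling, strand exchange and crossover formation, which held 49 other tested genes. Hfm1 and Cntd1 of the crossover list are counted among these, though only the Cyp26b1 knockout arrays brought them into the test. Their calls as higher in Cyp26b1 knockout and lower in double knockout therefore lend no support to the counts. Over all features tested, 21.6% were higher and 29.6% lower in Cyp26b1 knockout than in wild type. The shares were 5.3% and 6.56% for double knockout against wild type, and 25.2% and 18% for double knockout against Cyp26b1 knockout. The counts per step below are to be read beside the same shares. Between Cyp26b1 knockout and wild type 26 of the 49 genes were higher, 8 lower and 15 not called, with a median of 0.35. In double knockout 5 were higher than in wild type, 1 was lower and 43 were not called, with a median of 0.16. Set against Cyp26b1 knockout, 12 of them in double knockout were higher, 18 lower and 19 not called, with a median of -0.09. With the scaling of the authors' deposited table the last split was 6 higher and 28 lower. Single arrays moved these counts: against wild type, 4 were lower in Cyp26b1 knockout without wild-type replicate 1 and 5 without wild-type replicate 2. In double knockout 2 were higher than in wild type without double knockout replicate 2, wild-type replicate 1 or wild-type replicate 2, and 3 without double knockout replicate 1, with 0 lower in each case. Without double knockout replicate 2, 7 were higher in double knockout than in Cyp26b1 knockout.

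Break formation had 2 other tested genes. Zcwpw1, a reader of the histone marks laid down by PRDM9, was 3.06-fold higher in Cyp26b1 knockout than in wild type (1.61 ± 0.16, adjusted p = 0.000295) and 3.44-fold lower in double knockout than in Cyp26b1 knockout. Its dimmer probe went the other way between Cyp26b1 knockout and wild type (-0.41, adjusted p = 0.0302). Hells, a chromatin remodeller that works with PRDM9, was higher than in wild type in both double knockout (1.04 ± 0.09, adjusted p = 0.00118) and Cyp26b1 knockout (0.95 ± 0.09, adjusted p = 0.000245). The knockouts differed by 0.09 for Hells (adjusted p = 0.435).

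Among 15 genes of resection and damage signalling, 8 were higher and 2 lower in Cyp26b1 knockout than in wild type. Rad9b, a subunit of a checkpoint clamp, was 3.3-fold higher, and Rad50, of the complex that processes broken ends, 3.06-fold higher. Hus1, another clamp subunit (-0.44), and Nbn, a partner of Rad50 (-0.36), were lower at their brightest probes, while the other probes of both had positive differences that did not pass the test. Hus1 lost its call without wild-type replicate 1 (adjusted p = 0.051) and Nbn without wild-type replicate 2 (0.0512). Double knockout had 2 higher and 1 lower than wild type. These were the resection nuclease Exo1 (0.83, adjusted p = 0.0229), the checkpoint kinase Chek1 (0.60, adjusted p = 0.019) and the checkpoint kinase Chek2 (-0.58, adjusted p = 0.0392). The call of Exo1 was lost without either double knockout array or wild-type replicate 1, that of Chek1 without either double knockout array or wild-type replicate 2, and that of Chek2 without any 1 of these 4 arrays (adjusted p from 0.0541 to 0.241 over the 3 genes). Between double knockout and Cyp26b1 knockout 3 were higher and 6 lower, among them Chek1 (0.69) and Nbn (0.62) higher, and Rad50 (-1.45) and Rad9b (-1.09) lower. The dimmer Nbn probe went the other way (-0.52, adjusted p = 0.00727).

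Strand exchange had 20 other tested genes, of which 10 were higher and 3 lower in Cyp26b1 knockout than in wild type. The gene listed as 4930432K21Rik, also called Brme1 and encoding a partner of meiotic BRCA2 complexes, was 3.13-fold higher. Rad51ap1, which stimulates the pairing of DNA strands, was 2.72-fold higher. Mnd1, whose product helps DMC1 invade the matching DNA, was instead 2.43-fold lower (-1.28 ± 0.14, adjusted p = 0.000481), and Sfr1, another recombinase helper, was lower by a log2 difference of -0.67. Double knockout had 2 higher and 0 lower than wild type, 4930432K21Rik (0.53, adjusted p = 0.00973) and Fignl1, an ATPase that acts on recombinase filaments (0.33, adjusted p = 0.0412). The first of these was lost without wild-type replicate 1 (adjusted p = 0.0614) or wild-type replicate 2 (0.0845), and Fignl1 without any 1 of the double knockout and wild-type arrays (0.114 to 0.233). Set against Cyp26b1 knockout, 7 were higher in double knockout and 6 lower. Mnd1 (1.06) and Sfr1 (0.61) were higher, and Rad51ap1 (-1.30) and 4930432K21Rik (-1.12) were lower.

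Crossover formation had 12 other tested genes. Of these, 6 were higher and 3 lower in Cyp26b1 knockout than in wild type, and none was called between double knockout and wild type. Among the higher ones, Hfm1 and Cntd1 were well above background on no other arrays and were tested only through Cyp26b1 knockout. The filter thus admitted them through the group where they were high. Their calls against that group are counted but lend no support, and their lack of a call between double knockout and wild type says little. Cntd1, a cyclin-like factor that helps select crossover sites, was well above background on both Cyp26b1 knockout arrays and on no other array. Its signal was at least 3.97-fold higher in Cyp26b1 knockout than in wild type. It was at least 3.27-fold lower in double knockout than in Cyp26b1 knockout. These bounds set the brighter mean against the lowest signal counted as above background. Cdk2, a kinase found at crossover sites, was 3.97-fold higher in Cyp26b1 knockout than in wild type and 4.22-fold lower in double knockout than in Cyp26b1 knockout, while its other probe did not pass in the first of these (-0.29, adjusted p = 0.538). The nuclease scaffold gene Slx4 (-0.53) and the resolvase gene Gen1 (-0.49) were lower in Cyp26b1 knockout than in wild type, with 1 of 3 Gen1 probes going the other way (0.59, adjusted p = 0.04). Slx4 lost its call without Cyp26b1 knockout replicate 1 (adjusted p = 0.0627) or wild-type replicate 2 (0.0843), and Gen1 without wild-type replicate 1 (0.0802). Between double knockout and Cyp26b1 knockout 2 were higher, Gen1 (0.57) and Rmi1, of a complex that unwinds joined DNA (0.66). The 5 that were lower included Hfm1 and Cntd1.

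**Figure D3:**
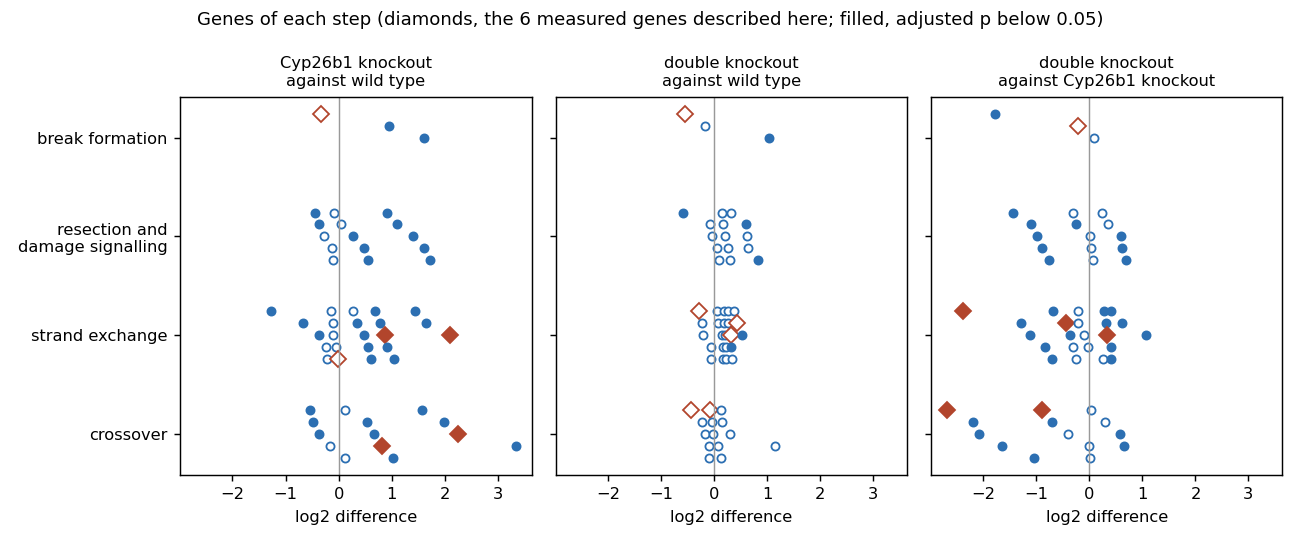
Log2 difference at the brightest probe (horizontal axis) for each tested gene of 4 lists (rows, points spread vertically for legibility) in the 3 comparisons, with diamonds for the 6 genes described here, circles for the others and filled symbols where the limma adjusted p was below 0.05. In the crossover row Msh5 and Msh4 are positive where Cyp26b1 knockout is compared with wild type and negative for double knockout against Cyp26b1 knockout, and no crossover gene is filled for double knockout against wild type.

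The mitotic relatives of Msh4, Msh5 and Mlh3 act in mismatch repair, the correction of replication errors, and Msh3, Msh6, Pms1 and Pms2 are described here. Between Cyp26b1 knockout and wild type Pms2 was higher (0.42 ± 0.09, adjusted p = 0.00631) and Pms1 lower (-0.40 ± 0.11, adjusted p = 0.0166), while Msh3 (0.20) and Msh6 (-0.21) were not called. With the scaling of the authors' deposited table Msh3 passed in this comparison (0.31, adjusted p = 0.024). Msh6 passed there without Cyp26b1 knockout replicate 1 (-0.35, adjusted p = 0.0242). The call of Pms2 was lost without wild-type replicate 2 (adjusted p = 0.0524), and that of Pms1 without Cyp26b1 knockout replicate 2 (0.0721), wild-type replicate 1 (0.0617) or wild-type replicate 2 (0.0919). None of these 4 genes was called by limma between double knockout and wild type, though Msh6 had an unadjusted p under 0.05. Msh6 differed by 0.36 (adjusted p = 0.0784), which passed without Cyp26b1 knockout replicate 1 (0.0323) or replicate 2 (0.0322). Between double knockout and Cyp26b1 knockout Msh6 (0.57) and Pms1 (0.58) were higher and Pms2 was lower (-0.27). Msh3 was called lower there only with other processing, such as the scaling of the authors' deposited table (-0.47, adjusted p = 0.00509). In the last comparison Msh6 and Pms1 differed in sign from Msh4 and Msh5. The call of Pms2 there was lost without any 1 of the 6 arrays (adjusted p from 0.0617 to 0.151), and those of Msh6 and Pms1 with the scaling of the authors' deposited table.

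For each of the 6 genes, the 3 named genes with the most similar profile over the 6 arrays were found among 12735 candidates, by the distance between log2 profiles centred on their own means. The arrays share genotype and slide, so likeness may follow either. For Dmc1 they were Pparg (distance 0.356), Slc25a42 and Cyth4, and for Msh5 they were Slc25a42 (0.368), a probe of Actb and Fbxo2. That Actb probe read -1.60 and -1.81 on double knockout arrays, 0.56 and 0.73 on Cyp26b1 knockout arrays, and -1.64 and -1.66 on wild-type arrays. Actb encodes beta-actin, a cytoskeletal protein, and this probe, like that of Msh5, lay higher on both Cyp26b1 knockout arrays than on the other 4. For Msh4 the nearest were Sec16a (0.127), Usp9x and Atm, the last a kinase that responds to DNA breaks. For Brca2 they were Stab1 (0.129), Calr and Cacul1, for Trip13 Ptcd3 (0.0539), Timm23 and Psma7, and for Spo11 Tti2 (0.118), Lpin1 and Csf2rb2. A Pearson r from 0.954 to 0.995 over the 6 arrays describes these pairs, which were picked for likeness.

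Promoter windows were read from RefSeq for build GRCm38.p6, from 250 bases before to 50 after a transcript start, for 8 of the 9 genes (10 windows). They are shown for the 4 genes called in both comparisons with Cyp26b1 knockout, since these moved together. Capitals mark matches on either strand to the E2F motif TCCCGC and, in Msh5, to the motif CNCCTCAG reported for the STRA8-MEIOSIN complex. The E-box CACGTG and the retinoic acid response motif AGGTCA were also searched, and neither was found in these 4 windows.
Dmc1, chr15:79605060-79605359, minus strand: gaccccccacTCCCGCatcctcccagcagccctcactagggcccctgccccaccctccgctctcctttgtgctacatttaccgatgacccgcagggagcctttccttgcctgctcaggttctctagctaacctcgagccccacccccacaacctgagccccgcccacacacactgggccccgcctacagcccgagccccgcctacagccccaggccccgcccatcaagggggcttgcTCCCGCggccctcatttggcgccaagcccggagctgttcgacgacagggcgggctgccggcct
Msh5, chr17:35046573-35046872, minus strand: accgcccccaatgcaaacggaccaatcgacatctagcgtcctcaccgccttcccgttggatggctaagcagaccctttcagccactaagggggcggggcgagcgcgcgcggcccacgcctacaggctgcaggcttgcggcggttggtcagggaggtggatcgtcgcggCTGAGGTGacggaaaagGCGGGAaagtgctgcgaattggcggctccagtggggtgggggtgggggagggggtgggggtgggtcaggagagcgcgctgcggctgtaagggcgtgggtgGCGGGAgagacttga
Brca2, chr5:150522371-150522670, plus strand: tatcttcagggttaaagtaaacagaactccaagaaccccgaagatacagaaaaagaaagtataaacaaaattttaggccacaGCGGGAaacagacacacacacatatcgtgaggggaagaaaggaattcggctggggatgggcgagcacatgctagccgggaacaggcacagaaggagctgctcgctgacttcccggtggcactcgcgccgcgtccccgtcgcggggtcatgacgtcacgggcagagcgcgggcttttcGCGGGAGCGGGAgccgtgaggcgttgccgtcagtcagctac
Msh4, chr3:153904842-153905141, minus strand: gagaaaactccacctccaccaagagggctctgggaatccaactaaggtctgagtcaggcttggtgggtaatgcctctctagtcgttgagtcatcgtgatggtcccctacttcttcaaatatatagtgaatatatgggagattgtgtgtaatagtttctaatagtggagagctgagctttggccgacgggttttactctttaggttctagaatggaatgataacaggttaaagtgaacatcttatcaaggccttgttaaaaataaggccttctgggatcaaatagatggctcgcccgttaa

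The Msh5 window held 1 STRA8-MEIOSIN motif, 82 to 75 bases before the start, and 2 E2F motifs. Dmc1 held 2 E2F motifs and Brca2 held 3, while these letters were not found in the windows of Msh4, Trip13 and Mlh3. The second Prdm9 window held 2 STRA8-MEIOSIN motifs, 1 of which overlaps an E2F motif by its first base, the first Prdm9 window held 1 E2F motif, and the Mei1 window held 1 retinoic acid response motif. Of all 32851 windows in the table, 7.94% held the STRA8-MEIOSIN motif, 20.0% the E2F motif, 7.15% the E-box and 16.3% the retinoic acid response motif. These shares were not matched for base composition. The GC content was 69.0% in the Dmc1 window, 67.3% in Msh5, 56.7% in Brca2 and 43.3% in Msh4. Its median over all windows was 52.7%, and its part in the matches was not tested. The starts used by the table lie inside the annotated gene by 50 bases for Dmc1, 375 for Msh5, 324 for Brca2 and 1247 for Msh4, so other starts of these genes are not covered. A match describes the letters and is no evidence of binding.

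**Figure D4:**
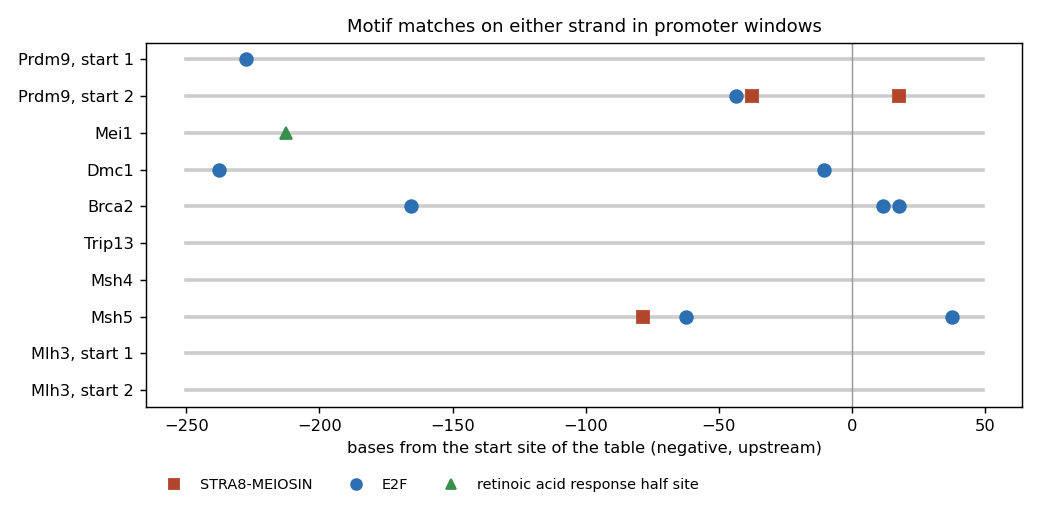
Positions of motif matches on either strand (horizontal axis, bases from the transcript start) in the 10 promoter windows of 8 genes (rows, grey lines spanning the window), with squares for STRA8-MEIOSIN, circles for E2F and a triangle for the retinoic acid response motif. Squares appear in Msh5 and at the second Prdm9 start, and the windows of Trip13, Msh4 and Mlh3 hold no match.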

How the data were processed

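RNA of male gonads was hybridised to 6 one-colour arrays, 2 per genotype. The authors deposited 1 scanner file per array with spot intensity values on a linear scale, read with Agilent Feature Extraction 9.5.3.1 and background-subtracted, per the file headers. They also deposited a table of values that behave as a linear ratio, with 1 column per genotype (medians 0.9585 for double knockout, 1.119 for Cyp26b1 knockout and 0.9998 for wild type). Its scale and direction were settled against the scanner values, while its centring stays unknown.

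Here log2 processed signals were set relative to each array's 75th percentile. Control and outlier-marked spots were left out, spots of a probe were averaged, and 25 probes were dropped. Accessions were matched without versions to RefSeq (GRCm38.p6): 23374 probes had 1 symbol, 0 several and 17800 none. Each gene was tested at its brightest probe, each unnamed probe by itself, if well above background on both arrays of a genotype. limma 3.58.1 in R 4.3.3 (lmFit, eBayes with trend, 3 residual and 4.35 prior degrees of freedom) was fitted to all 6 arrays and was tested on simulated data. The simulation changed a small part of the features and held no slide effect, unlike these arrays. It therefore does not measure the error rate of the calls here. Errors are SEs of that fit unless marked SD.

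Deviations of arrays with the same file number were weakly correlated (r = 0.121, 0.224 and 0.117 for the pairs of genotypes). The labels do not state what the number marks, and it was fitted as a replicate block only as an alternative. The scanner files lack the mean signal, so the planned normexp correction used the median signal. Other genes were named as the 2 largest called changes per list, direction and comparison, with some mismatch repair genes (others are not reported here), both targeted genes and the 3 nearest profiles. The genes and lists were chosen with earlier results of these data known. The number of arrays limits the precision.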

Additional observations from a re-analysis of the deposited data

How the results depend on the processing

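Of the 17 alternatives, 2 were chosen after seeing the data, normexp on the median signal over all spots and the same without marked spots. For the 6 genes, 89 of 102 values for Cyp26b1 knockout against wild type, 85 of 102 for double knockout against wild type and 82 of 102 for double knockout against Cyp26b1 knockout kept direction and side of the threshold. Alternatives that changed only the filter, the trend, the replicate block or arrays outside a comparison could not change its direction. In those values only the side of the threshold could move. The calls of Dmc1 and Msh5 against wild type and against Cyp26b1 knockout held except that normexp over all spots, whose fit reached its numerical limit, left Dmc1 at 0.89 (adjusted p = 0.103) and Msh5 at 0.63 (adjusted p = 0.574) for Cyp26b1 knockout against wild type and Msh5 at -1.27 (adjusted p = 0.158) for double knockout against Cyp26b1 knockout. That setting also ended the calls of Msh4, Brca2 and Trip13 in the last comparison (adjusted p = 0.963, 0.0841 and 0.655). The causes of the changes below were not tested. The list of moved counts below is not complete. Calls gained or lost by single genes, such as those of Msh4, Brca2 and Spo11 given above, moved the counts too.

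For Cyp26b1 knockout against wild type, 1 gene was higher under normexp over all spots, and 0 to 1 were lower with single arrays left out. For double knockout against wild type, 1 was higher under quantile normalization, normexp without marked spots, the 4 arrays compared and the replicate block, and 0 to 1 with single arrays left out. In the same comparison 2 were lower with the authors' scaling, 1 with the 4 arrays compared, 1 with the replicate block and 0 to 1 with single arrays left out. Against Cyp26b1 knockout, 0 were higher in double knockout under quantile normalization, the authors' scaling, normexp over all spots and eBayes without trend, 0 to 1 with single arrays left out, and 1 was lower under normexp over all spots. Brca2 also lost its call there in normexp without marked spots (adjusted p = 0.0957), without the filter (0.0591), without the trend (0.0971) and with the 4 arrays compared (0.0649). The replicate block changed no other call of the 6 genes. Under quantile normalization Msh3 passed for Cyp26b1 knockout against wild type (0.27, adjusted p = 0.0317). It also passed there for double knockout against Cyp26b1 knockout (-0.26, adjusted p = 0.0426). Normexp without marked spots called Msh3 for Cyp26b1 knockout against wild type (0.24, adjusted p = 0.0459).

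Directions turned as follows (log2). For Cyp26b1 knockout against wild type, averaging all probes gave 0.205 for Spo11 and 0.237 for Hus1. In that comparison normexp over all spots gave -0.26 for Msh4, -0.351 for Cntd1, 0.23 for Trip13 and 0.024 for Msh6. Trip13 was at 0.104 under quantile normalization, 0.097 with the authors' scaling and 0.019 under normexp without marked spots. For double knockout against wild type, Msh4 was at 0.048 under quantile normalization and 0.009 under normexp without marked spots, and Msh3 at -0.353 with all probes averaged. The authors' scaling gave -0.164 for Msh3, -0.017 for Pms1, -0.052 for Pms2 and -0.122 for Cyp26b1. With single arrays left out, Cyp26b1 knockout against wild type ranged from -0.105 to 0.092 for Trip13 and from -0.1 to 0.335 for Cyp26b1. Double knockout against wild type ranged from -0.773 to 0.191 for Dmc1, -0.205 to 0.062 for Msh4, -0.032 to 0.105 for Msh3 and -0.023 to 0.18 for Cyp26b1. Double knockout against Cyp26b1 knockout ranged from -0.256 to 0.179 for Cyp26b1.

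Over the alternatives, 13 to 27 of the other recombination genes were higher and 1 to 8 lower in Cyp26b1 knockout than in wild type, 2 to 8 higher and 0 to 2 lower in double knockout than in wild type, and 5 to 13 higher and 7 to 28 lower in double knockout than in Cyp26b1 knockout, where the authors' scaling gave 6 higher and 28 lower and normexp over all spots 5 and 7. With 2 arrays per genotype and 1 slide each, precision is limited by the number of arrays. All 9 probes were well above background. Normexp on the mean signal was not run, since that column is not in the files used here.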
